A study of Mus musculus with 15 samples.

Results

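The IUGR lineage was compared across generations in mouse liver: sons of males that had been growth-restricted before birth (IUGR F2) against those growth-restricted males themselves (IUGR F1). Members were chosen by the sample titles, with 3 arrays per generation (pools 10, 11 and 12 for IUGR F2 and pools 4, 5 and 6 for IUGR F1), which makes 6 of the 15 arrays of the series. IUGR F1 pools held liver of adult males whose calories were restricted by 50% in utero. IUGR F2 pools held liver of adult male offspring of such males, and no treatment of their own is given. The other arrays held male offspring of mice overfed while suckling (ON F2), those overfed mice (ON F1) and control males drawn from both generations, 3 pools each. The study asked whether expression patterns of exposed males recur in their sons through the paternal line. The number 3 that opens each title is read here as livers per pool, and strain and exact age are not given in the sources used here. Exposed males were compared with males that were not exposed themselves, so generation and direct exposure cannot be told apart.

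Intrauterine growth restriction is low growth of the fetus, here produced by underfeeding the dam, and in rodents and humans it is associated with later insulin resistance and fat accumulation in the liver. The liver turns surplus sugar into fatty acids through enzymes under the control of insulin, the factor SREBP-1c and the sugar-sensing factor ChREBP. In fasting it switches to fatty acid oxidation under the nuclear receptor PPARα, and the circadian clock times both programmes over the day. Liver RNA was read on the Affymetrix Mouse Genome 430 2.0 array, which measures genes through short-oligonucleotide probe sets. Levels are log2 RMA (robust multi-array average) values, and a difference is IUGR F2 minus IUGR F1 on that log2 scale with the standard error (SE) from limma.

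All 15 arrays read as male liver. Xist, the RNA that silences 1 X chromosome in females, lay at 3.75 to 4.44, Y-linked Eif2s3y at 7.59 to 8.22, and albumin between 14.4 and 14.5. Across genes, each read through its brightest probe set, the arrays correlated at 0.9956 on average among IUGR F2 pools. The average was 0.9947 among IUGR F1 pools and 0.9939 between the 2 generations, and 0 pairs of arrays held identical values. Pool 5 of IUGR F1 carried more skeletal muscle RNA than the others (Acta1 7.28, against 4.67 to 4.86 in the other 5 pools). An index of RNA integrity, the 3' over 5' signal of the actin controls, was 1.93, 1.84 and 2.28 on the log2 scale in IUGR F2, against 1.88, 1.93 and 1.83 in IUGR F1 pools. The clock gene Dbp, which swings widely over the day in liver, stood at 5.46, 6.18 and 7.97 in IUGR F2 pools, against 5.30, 9.77 and 9.08 in IUGR F1 pools. Its spread was thus wide among the IUGR F1 pools, and the ranges of both generations overlapped.

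Few single genes separated the generations. Of 18193 genes tested, 4 (0.022%) differed at a limma adjusted p under 0.05. Of these, 4 rose in IUGR F2 and 0 fell. Without adjustment, 2085 genes (11.5%) had p under 0.05, with 777 higher (4.27%) and 1308 lower (7.19%) in IUGR F2. The 3 pools of one generation lay wholly outside the range of the other for 1319 genes higher in IUGR F2 (7.25%) and 2184 genes lower in it (12%). The median difference over all genes was -0.03, with 58.1% of the differences below 0, and the median SE was 0.102. Differences larger than 1 were seen for 23 genes, 8 higher and 15 lower. The labels do not state whether the pools hold different litters, and the p-values refer to the variation among pools only. For a single gene taken alone, an exact permutation test of 3 pools against 3 cannot go below p = 0.10, and the calls therefore rest on the model fitted across all genes.

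Adi1 encodes acireductone dioxygenase, an enzyme of the methionine salvage pathway that recycles the sulfur-containing by-product of polyamine synthesis. Its level was 9.02, 8.97 and 9.30 in IUGR F2 pools, against 8.18, 8.32 and 8.36 in IUGR F1 pools, and the ranges of the generations were far apart. It rose by 0.81 ± 0.09, a 1.75-fold higher level (adjusted p = 0.0164). Control pools stood at 8.25, 8.75 and 8.55, with a mean of 8.52 between the means of both generations. The array reads Adi1 through 3 probe sets, which did not behave alike. Probe set 1438758_at gave 8.35, 8.15 and 9.15 in IUGR F2 pools, against 6.02, 6.32 and 6.41 in IUGR F1 pools, a difference of 2.30 ± 0.22. Probe set 1438759_x_at, the brightest and the one tested, gave the difference of 0.81 above. Probe set 1449076_x_at differed by 0.03 ± 0.13, and its levels of 7.98, 8.09 and 7.84 in IUGR F2 pools overlapped with 7.86, 7.86 and 8.11 in IUGR F1 pools. The difference thus appeared in 2 of the 3 probe sets of the gene. The 3 measured genes on either side of Adi1 in the RefSeq gene order differed by -0.17 to 0.05, and 0 of these 6 were called.

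The other 3 called genes rose by smaller amounts with tight pools. Mtif2, a translation initiation factor of mitochondria, stood at 7.96, 8.03 and 8.14 in IUGR F2 pools, against 7.40, 7.43 and 7.38 in IUGR F1 pools. It rose by 0.64 ± 0.08 (adjusted p = 0.0183), and its single probe set left no second reading. Dctn6, a subunit of the dynactin complex that links dynein to its cargo, stood at 7.77, 7.83 and 7.85 in IUGR F2 pools, against 7.25, 7.25 and 7.19 in IUGR F1 pools. It rose by 0.58 ± 0.08 (adjusted p = 0.0314), while its other probe set differed by 0.03. Sppl2a, an intramembrane protease of lysosomes that clears the stub of the MHC class II chaperone CD74, stood at 10.55, 10.57 and 10.67 in IUGR F2 pools, against 10.12, 10.13 and 9.97 in IUGR F1 pools. It rose by 0.53 ± 0.07 (adjusted p = 0.0314), and its 3 probe sets differed by 0.14 to 0.53. In all 3 genes the pools of the generations did not overlap. Control means of 7.72 for Mtif2, 7.59 for Dctn6 and 10.40 for Sppl2a lay between those of IUGR F2 and IUGR F1. The Dctn6 control pools spread widely, at 7.20, 7.86 and 7.70, from within the IUGR F1 range to above every IUGR F2 pool. At 10.57, a Sppl2a control pool lay within the IUGR F2 range, while all Mtif2 control pools lay between the generations. The calls were sensitive to single pools: without any 1 of IUGR F1 pools 4, 5 and 6 or IUGR F2 pool 10, 0 genes were called, against 2 without pool 11 and 1 without pool 12. Without 1 of the ON pools, which enter through the shared estimate of the spread, 2 to 6 genes were called.

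**Figure D1:**
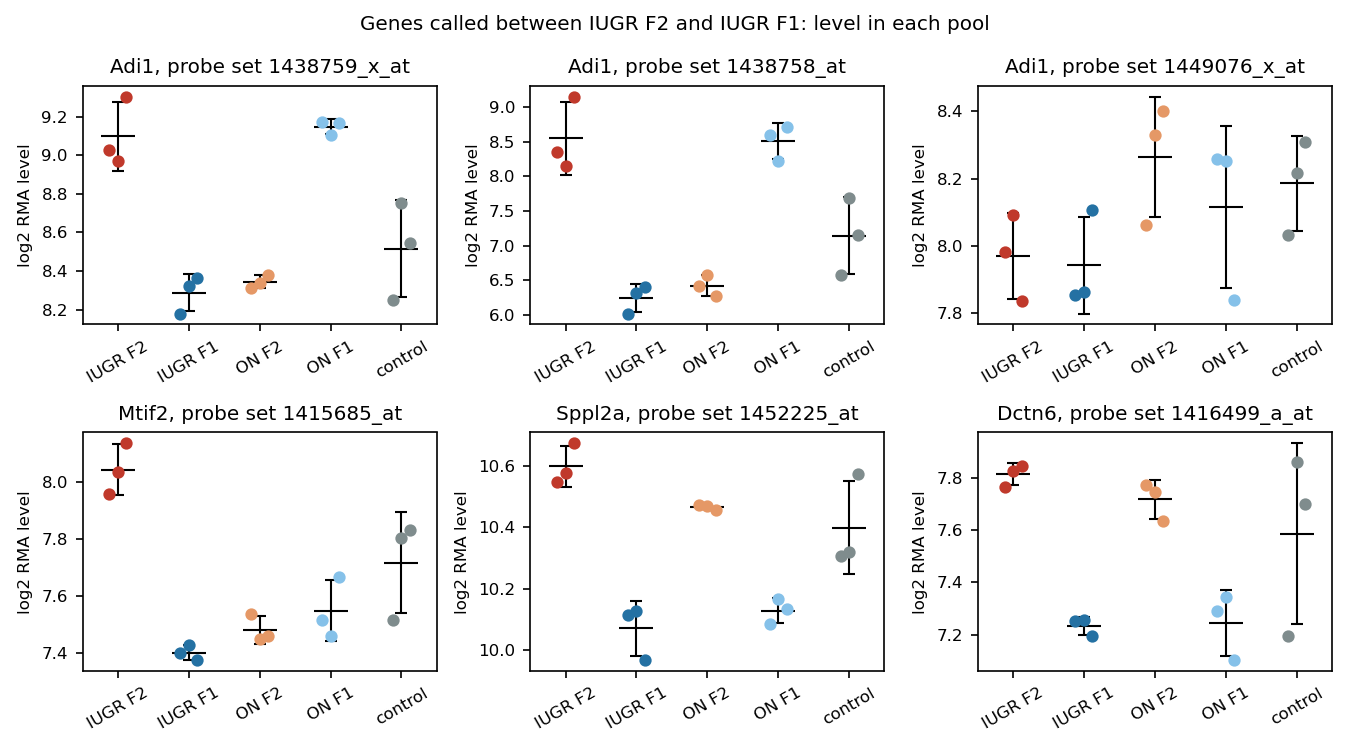
Log2 RMA level of the genes called between generations (y axis) in each pool of IUGR F2, IUGR F1, ON F2, ON F1 and control liver (x axis), with all 3 probe sets of Adi1. Points are pools, bars the mean ± SD of 3 pools. In IUGR F2 the tested probe set of Adi1 sits between 8.97 and 9.30, above IUGR F1 pools at 8.18 to 8.36, whereas ON F2 pools sit below ON F1 pools.

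A promoter window in the RefSeq table (GRCm38.p6, 250 bases before to 50 after the gene start) was listed for 2 of the 4 called genes, Mtif2 and Sppl2a. That of Sppl2a (chr2:126933186-126933485, minus strand) is shown because it holds GAAA, any 2 bases, GAAA, the core of the element through which interferon drives its target genes, which recur below. The capitals mark this match, 8 bases before the gene start. Of 14449 promoters of genes on the array, 437 (3.02%) held these letters on either strand. The window of Mtif2 held no such match.
Sppl2a: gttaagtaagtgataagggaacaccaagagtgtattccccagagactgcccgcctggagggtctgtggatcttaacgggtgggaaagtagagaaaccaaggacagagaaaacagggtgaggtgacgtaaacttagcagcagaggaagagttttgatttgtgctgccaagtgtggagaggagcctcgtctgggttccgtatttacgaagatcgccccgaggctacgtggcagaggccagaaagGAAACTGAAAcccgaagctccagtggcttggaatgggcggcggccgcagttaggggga

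Among the genes with the smallest p and separate pools, those higher in IUGR F2 beyond the called ones were Rnft1, Npat, Lasp1, Mndal, Kdm5a and Rnf144b, with differences of 0.44 to 0.58 and adjusted p of 0.0642 to 0.108. Npat, a coactivator of histone genes at the start of DNA replication, stood at 5.65, 5.64 and 5.73 in IUGR F2 pools, against 5.17, 5.01 and 5.30 in IUGR F1 pools. Kdm5a, a demethylase of histone H3 lysine 4, stood at 6.83, 6.67 and 6.86 in IUGR F2 pools, against 6.23, 6.34 and 6.24 in IUGR F1 pools. The 2 probe sets of Npat differed by 0.15 and 0.51, and the 6 of Kdm5a by 0.05 to 0.52. Lasp1, an actin-binding protein, differed by 0.45 ± 0.08, and its 9 probe sets by -0.17 to 0.46. The levels of these genes did not overlap between generations, and none passed the adjusted threshold. Among the 10 on the lower side, adjusted p was 0.0844 to 0.138, and Slc15a2, a carrier of small peptides across the cell membrane, had the largest difference. It stood at 5.92, 6.16 and 5.42 in IUGR F2 pools, against 6.96, 6.73 and 6.68 in IUGR F1 pools. Its 3 probe sets differed by -0.96 to 0.01. Pls1, an actin-bundling protein of microvilli, stood at 5.22, 5.04 and 5.25 in IUGR F2 pools, against 6.04, 6.05 and 6.21 in IUGR F1 pools, a difference of -0.93 ± 0.16 (adjusted p = 0.0945). Pls1 was the 1 gene called in a fit of the 6 IUGR arrays alone, on the lower side. Slc7a4, Dusp23, Mospd3, Cgas, Rimklb, Mroh2a, Cog5 and Umodl1 completed the lower set with differences of -0.57 to -0.39. Cgas, the sensor of cytosolic DNA, stood at 4.55, 4.54 and 4.67 in IUGR F2 pools, against 4.96, 5.13 and 5.02 in IUGR F1 pools. It was dim, with a mean of 4.77, and its 2 probe sets differed by -0.45 and -0.05. Control means lay between the generation means for 8 of the 10 higher and 9 of the 10 lower genes. The genes were chosen because their generations lay apart, and control pools draw on both generations. The count thus only describes these genes.

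Among genes with an unadjusted p under 0.05, the largest differences by size belonged to genes with a wide spread between pools. None of these genes was called. Usp18, which removes the interferon-induced tag ISG15 from proteins, stood at 7.05, 6.07 and 6.90 in IUGR F2 pools, against 5.26, 5.29 and 5.65 in IUGR F1 pools, a difference of 1.27 ± 0.53 (adjusted p = 0.403). Socs2, a feedback inhibitor of growth hormone signalling, stood at 9.13, 8.51 and 9.60 in IUGR F2 pools, against 7.85, 8.08 and 8.37 in IUGR F1 pools, a difference of 0.98 ± 0.33 (adjusted p = 0.325). In both genes the pools of the generations did not overlap. The 6 probe sets of Socs2 differed by -0.03 to 0.98. Kcnk1, a potassium channel, and Cxcl1, a neutrophil-attracting chemokine, differed by 1.29 ± 0.42 and 1.22 ± 0.55 with overlapping pools. Taf15, an RNA-binding protein, differed by 1.04 ± 0.40, with IUGR F1 pool 5 alone at 4.73. On the lower side stood Cib3 at -1.61 ± 0.39 (adjusted p = 0.201), a calcium-binding protein, and Mfsd2a at -1.49 ± 0.34 (adjusted p = 0.183), a carrier of lysophospholipids that is induced in fasted mouse liver. Mfsd2a levels were 4.74, 4.82 and 5.92 in F2 and 7.44, 6.24 and 6.27 in F1 pools. Obp2a, an odorant-binding protein, differed by -1.48 ± 0.63, while Pnpla3 and Ighm are taken up with their gene groups below.

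Genes of fatty acid synthesis lay lower in IUGR F2 livers than in those of the previous generation. All 20 measured members of the list had a negative difference, with a median of -0.40, against 58.1% negative and a median of -0.03 over all genes. In 14 of the 20 (70%) all IUGR F2 pools stood below all IUGR F1 pools, against 12% of all genes, and 9 had an unadjusted p under 0.05. None of the members passed the adjusted threshold. The median deviation of the list from the mean of the 6 pools was -0.08, -0.34 and -0.36 in IUGR F2 pools 10, 11 and 12, against 0.33, 0.19 and 0.16 in IUGR F1 pools 4, 5 and 6, so that all 3 IUGR F2 pools were below all 3 IUGR F1 pools, with pool 10 nearest to them.

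Fasn, the fatty acid synthase that builds palmitate, stood at 11.36, 11.10 and 10.75 in IUGR F2 pools, against 12.04, 11.93 and 11.47 in IUGR F1 pools, a ratio of 0.598 (-0.74 ± 0.32, adjusted p = 0.422). Acaca, the acetyl-CoA carboxylase that feeds it, stood at 8.73, 8.49 and 8.71 in IUGR F2 pools, against 9.17, 9.04 and 8.91 in IUGR F1 pools (-0.40 ± 0.23, adjusted p = 0.54). Me1, malic enzyme, a supplier of the NADPH the synthase uses, stood at 9.71, 9.77 and 9.45 in IUGR F2 pools, against 10.87, 10.61 and 10.42 in IUGR F1 pools (-0.99 ± 0.40, adjusted p = 0.394). These enzymes differed by the same sign in every pairing of pools. Thrsp, a promoter of lipogenesis induced by thyroid hormone and sugar, stood at 11.48, 11.06 and 10.06 in IUGR F2 pools, against 12.04, 12.91 and 11.87 in IUGR F1 pools (-1.40 ± 0.45, adjusted p = 0.314). Scd1, the desaturase that makes oleate, stood at 13.52, 13.24 and 13.51 in IUGR F2 pools, against 13.87, 13.80 and 13.78 in IUGR F1 pools (-0.39 ± 0.14, adjusted p = 0.336), and Elovl6, which lengthens palmitate, at 9.73, 9.49 and 9.40 in IUGR F2 pools, against 10.57, 10.32 and 9.98 in IUGR F1 pools (-0.75 ± 0.40, adjusted p = 0.513). Slc25a1, the mitochondrial citrate carrier that exports the carbon for synthesis, had the smallest p of the list, at 10.14, 10.25 and 10.11 in IUGR F2 pools, against 10.54, 10.46 and 10.54 in IUGR F1 pools (-0.35 ± 0.10, adjusted p = 0.272). Pools of the generations stayed apart for each of these genes. Pnpla3, a lipid droplet protein whose human variant is a risk factor for fatty liver, stood at 5.48, 5.25 and 4.86 in IUGR F2 pools, against 7.21, 7.02 and 6.16 in IUGR F1 pools, a ratio of 0.33 (-1.60 ± 0.73, adjusted p = 0.431). Acly, the citrate-cleaving enzyme, was among the members with overlapping pools at 11.62, 10.98 and 10.70 in IUGR F2 pools, against 11.59, 11.33 and 11.09 in IUGR F1 pools (-0.24 ± 0.35, adjusted p = 0.837). In Acly, as in Aacs and Acacb, pool 10 stood above the lowest IUGR F1 pool.

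**Figure D2:**
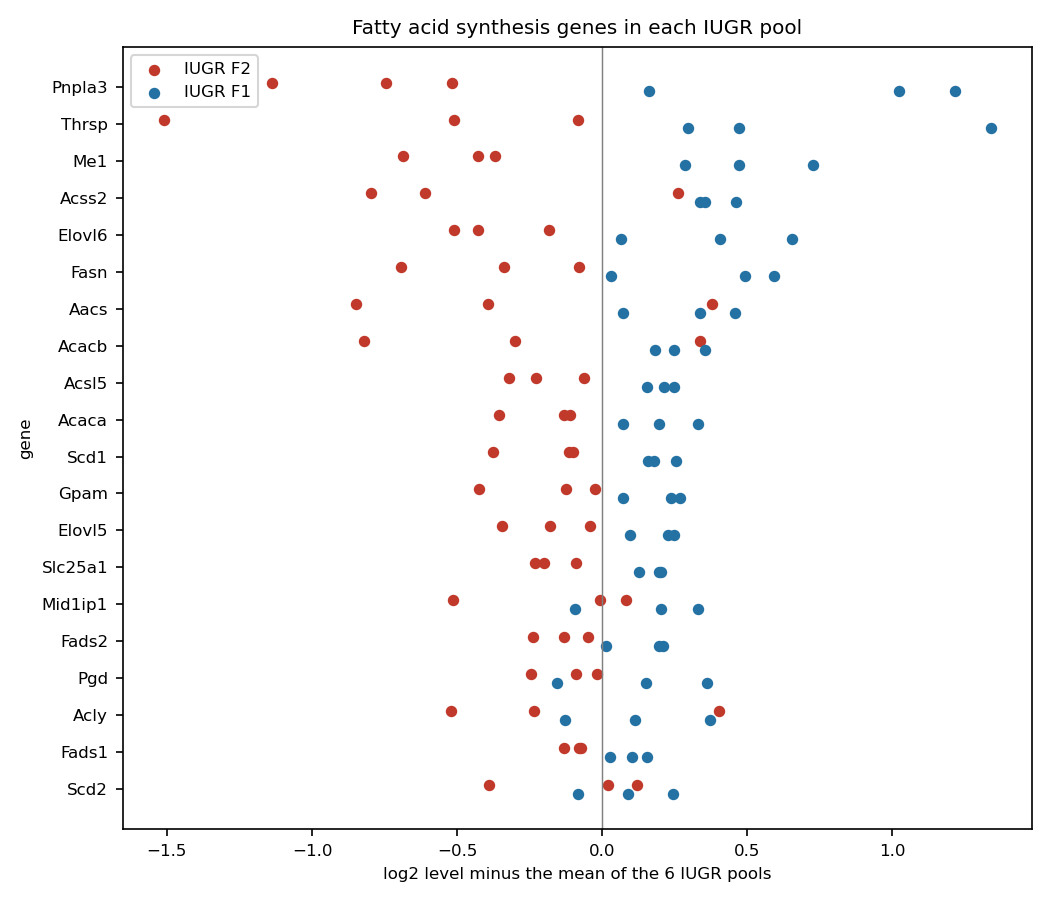
Level of each of the 20 measured fatty acid synthesis genes (y axis) in each IUGR pool, as log2 level minus the mean of the 6 pools (x axis). Red points are the 3 IUGR F2 pools and blue points the 3 IUGR F1 pools. In 14 genes every red point lies left of every blue point.

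Sugar entry and breakdown, and the factors that control lipogenesis, showed a mixed pattern, with 8 of 14 measured members negative and a median of -0.08. In 5 of them (35.7%, against 12% of all genes) all IUGR F2 pools were below the IUGR F1 pools, and in 1 (7.14%, against 7.25%) they were above. Without IUGR F1 pool 4 or IUGR F2 pool 10 the median was -0.05 in each case. Pfkl, the liver form of phosphofructokinase, stood at 6.97, 6.98 and 6.86 in IUGR F2 pools, against 7.33, 7.27 and 7.38 in IUGR F1 pools (-0.39 ± 0.08, adjusted p = 0.181). Khk, ketohexokinase, the first enzyme of fructose use, stood at 10.80, 10.58 and 10.74 in IUGR F2 pools, against 11.38, 11.13 and 11.18 in IUGR F1 pools (-0.52 ± 0.17, adjusted p = 0.312), and Pklr, liver pyruvate kinase, at 9.31, 8.79 and 8.87 in IUGR F2 pools, against 9.70, 9.86 and 9.63 in IUGR F1 pools (-0.74 ± 0.29, adjusted p = 0.373). Slc2a2, the glucose transporter of hepatocytes, differed by -0.34 ± 0.12. For these genes no IUGR F2 pool reached the IUGR F1 range on the probe set tested. The 3 probe sets of Pfkl differed by -0.39 to 0.16. Srebf1, which encodes SREBP-1c, stood at 11.21, 11.35 and 10.62 in IUGR F2 pools, against 11.75, 11.45 and 11.61 in IUGR F1 pools (-0.54 ± 0.23, adjusted p = 0.411). Mlxipl, which encodes ChREBP, differed by 0.18 ± 0.23 with overlapping pools at 10.06, 9.89 and 9.65 in F2 and 9.81, 9.36 and 9.90 in F1 pools. The members lower in IUGR F2 thus included the enzymes and Srebf1, and the ChREBP transcript did not share their sign.

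ChREBP and its partner act through carbohydrate response elements, which pair copies related to the E-box CACGTG. These letters were in 4 of 14 promoter windows of the sugar use list (28.6%) and 2 of 17 of the fatty acid synthesis list (11.8%), against 1304 of 14449 array genes (9.02%). The core clock list taken up below had the same share as the sugar use list (4 of 14, 28.6%), and the clock output list had 2 of 12 (16.7%). The windows of Khk (chr5:30921309-30921608, plus strand) and Slc25a1 (chr16:17928170-17928469, minus strand) are shown as the members with the E-box and low p in each list. Capitals mark CACGTG, 71 bases before the start of Khk and 239 before that of Slc25a1. The share in the fatty acid synthesis list lay close to that of all genes, and a match is a description of letters.
Khk: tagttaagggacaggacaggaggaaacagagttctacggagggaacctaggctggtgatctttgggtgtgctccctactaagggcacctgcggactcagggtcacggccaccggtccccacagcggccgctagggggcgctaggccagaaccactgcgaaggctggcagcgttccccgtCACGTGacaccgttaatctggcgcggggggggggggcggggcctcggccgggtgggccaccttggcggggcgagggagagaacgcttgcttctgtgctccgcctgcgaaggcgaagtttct
Slc25a1: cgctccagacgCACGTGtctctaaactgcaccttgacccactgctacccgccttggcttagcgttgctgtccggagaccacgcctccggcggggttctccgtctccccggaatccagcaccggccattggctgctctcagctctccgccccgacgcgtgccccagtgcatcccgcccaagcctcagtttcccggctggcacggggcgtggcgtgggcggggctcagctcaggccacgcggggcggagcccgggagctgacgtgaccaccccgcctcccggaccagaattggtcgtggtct

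Genes of fat storage and use had mostly negative differences of smaller size. In the list of lipid droplet coat and lipolysis genes, 21 of 24 (87.5%, against 58.1% of all genes) were negative, with a median of -0.13 that was -0.21 without IUGR F1 pool 5. The pools of 7 members stood wholly below (29.2%, against 12% of all genes). Fitm1, which partitions fat into droplets, stood at 7.75, 7.83 and 7.88 in IUGR F2 pools, against 8.75, 8.38 and 8.50 in IUGR F1 pools (-0.72 ± 0.23, adjusted p = 0.311), and Dgat1, which makes triglyceride, at 7.63, 7.61 and 7.66 in IUGR F2 pools, against 7.97, 7.77 and 7.83 in IUGR F1 pools (-0.22 ± 0.08, adjusted p = 0.325). Fatty acid beta-oxidation genes had 17 of 22 negative (77.3%, median -0.10), among them Hadha, a subunit of the trifunctional protein, at 9.82, 9.86 and 9.84 in IUGR F2 pools, against 10.11, 10.11 and 10.21 in IUGR F1 pools (-0.30 ± 0.08, adjusted p = 0.256). Acaa1a, a peroxisomal thiolase, went the other way at 8.72, 8.58 and 9.03 in IUGR F2 pools, against 8.34, 8.13 and 8.04 in IUGR F1 pools (0.60 ± 0.16, adjusted p = 0.236). Synthesis and oxidation genes did not differ by opposite signs as groups. PPARα targets that rise in fasting had 13 of 18 negative (72.2%, median -0.10). Pdk4, which blocks pyruvate entry into the citrate cycle, stood at 5.71, 5.92 and 5.20 in IUGR F2 pools, against 7.75, 5.99 and 6.73 in IUGR F1 pools (-1.22 ± 0.50, adjusted p = 0.397), and Acot2, a mitochondrial thioesterase, at 6.08, 5.82 and 5.96 in IUGR F2 pools, against 6.48, 6.33 and 6.92 in IUGR F1 pools (-0.63 ± 0.26, adjusted p = 0.405). Ppara itself differed by 0.01 ± 0.13, Cpt1a, the gate of mitochondrial oxidation, by 0.16 ± 0.16 and the fasting hormone Fgf21 by -0.40 ± 0.27, each with overlapping pools. Cholesterol synthesis genes had 10 of 18 negative and a median of 0.00. Lipoprotein genes were likewise balanced (10 of 20 negative), but Scarb1, the receptor that takes up cholesterol from HDL, stood at 10.71, 10.64 and 11.03 in IUGR F2 pools, against 10.11, 10.07 and 10.06 in IUGR F1 pools (0.71 ± 0.15, adjusted p = 0.181). Pltp, the phospholipid transfer protein, stood at 8.19, 7.52 and 7.94 in IUGR F2 pools, against 8.92, 8.45 and 9.17 in IUGR F1 pools (-0.97 ± 0.42, adjusted p = 0.425). Scarb1 was higher and Pltp lower in every IUGR F2 pool.

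Genes of insulin action and glucose output showed no common sign, with 14 of 22 positive and a median of 0.05. Insr, the insulin receptor, stood at 9.52, 9.44 and 9.53 in IUGR F2 pools, against 9.13, 9.21 and 9.39 in IUGR F1 pools (0.26 ± 0.10, adjusted p = 0.359), higher in every IUGR F2 pool. Foxo3, a factor that insulin restrains, stood at 6.90, 7.05 and 6.85 in IUGR F2 pools, against 7.19, 7.22 and 7.20 in IUGR F1 pools (-0.26 ± 0.11, adjusted p = 0.403), lower in every IUGR F2 pool. Pck1, the entry enzyme of gluconeogenesis, was even among the IUGR F2 pools and uneven among the IUGR F1 pools, at 11.56, 11.62 and 11.62 in IUGR F2 pools, against 10.44, 11.66 and 10.46 in IUGR F1 pools. G6pc, which releases glucose, differed by -0.07 ± 0.16. Over 3 probe sets each, Insr differed by -0.09 to 0.26 and Foxo3 by -0.26 to 0.12. The growth hormone list had a median of -0.01. Beside Socs2 above, Igf1, the growth factor the liver secretes under growth hormone, differed by -0.08 ± 0.12 and the receptor Ghr by -0.06 ± 0.07.

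Growth hormone pulses set the sex pattern of liver genes, with male-biased genes high and female-biased ones low in males. Male-biased genes had 11 of 14 positive (78.6%, against 41.9% of all genes, median 0.17). All IUGR F2 pools stood above all IUGR F1 pools in 1 of the 14 (7.14%, near the 7.25% of all genes). Female-biased genes had 12 of 14 negative (85.7%, against 58.1% of all genes, median -0.12), and 10 of the 14 had a mean below 5. Their IUGR F2 pools stood wholly below in 2 of the 14 (14.3%, near the 12% of all genes). In either list 0 were called by limma, and 0 and 1 had an unadjusted p under 0.05. The ON lineage had medians of 0.31 and -0.38 for these lists. Moxd1, a male-biased monooxygenase, stood at 10.77, 11.02 and 11.44 in IUGR F2 pools, against 8.65, 10.98 and 8.79 in IUGR F1 pools, where pool 5 reached the IUGR F2 range. Cyp2b9, a female-biased cytochrome P450, stood at 4.44, 3.89 and 4.14 in IUGR F2 pools, against 6.19, 4.23 and 5.71 in IUGR F1 pools (-1.22 ± 0.49, adjusted p = 0.389), with pool 5 again nearest to IUGR F2. The median deviation of the male-biased list was 0.00, 0.15 and 0.09 in IUGR F2 pools 10, 11 and 12, against -0.13, 0.08 and -0.13 in IUGR F1 pools 4, 5 and 6, and pool 5 was the 1 IUGR F1 pool above 0.

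Interferon-stimulated genes, which cells switch on upon viral or other interferon signals, lay higher in IUGR F2. Of 28 measured members, 26 had a positive difference, with a median of 0.30, against 41.9% positive over all genes. In 12 of the 28 (42.9%) all IUGR F2 pools stood above all IUGR F1 pools, against 7.25% of all genes. None of the members passed the adjusted threshold, and 4 had an unadjusted p under 0.05. The list stood at 0.24, -0.04 and 0.13 in IUGR F2 pools 10, 11 and 12, against -0.11, -0.14 and -0.10 in IUGR F1 pools 4, 5 and 6, so pool 10 was highest, pool 12 next, and pool 11 only a little above the IUGR F1 pools.

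Mndal, an interferon-inducible protein of the family that senses DNA, had the smallest p, at 5.63, 5.80 and 5.55 in IUGR F2 pools, against 5.21, 4.92 and 5.11 in IUGR F1 pools (0.58 ± 0.10, adjusted p = 0.0945), with both of its probe sets higher. Irf9, the DNA-binding subunit of the interferon factor ISGF3, stood at 7.31, 7.18 and 6.89 in IUGR F2 pools, against 6.51, 6.82 and 6.44 in IUGR F1 pools (0.53 ± 0.17, adjusted p = 0.314). Mx2, a GTPase that blocks viruses, stood at 6.38, 6.02 and 6.43 in IUGR F2 pools, against 5.96, 5.56 and 5.76 in IUGR F1 pools (0.52 ± 0.18, adjusted p = 0.325). In these genes, as in Usp18 above, every IUGR F2 pool exceeded every IUGR F1 pool. Xaf1, a pro-apoptotic target, stood at 6.88, 6.15 and 6.63 in IUGR F2 pools, against 5.87, 5.89 and 5.89 in IUGR F1 pools (0.67 ± 0.37, adjusted p = 0.527). Oas1a, a sensor of double-stranded RNA, stood at 7.54, 6.67 and 7.00 in IUGR F2 pools, against 6.36, 6.25 and 6.46 in IUGR F1 pools (0.71 ± 0.59, adjusted p = 0.688), and Ifit1, which binds foreign RNA, at 7.19, 5.97 and 7.15 in IUGR F2 pools, against 5.96, 5.61 and 5.87 in IUGR F1 pools (0.96 ± 0.58, adjusted p = 0.56). Of these, Xaf1, Oas1a and Ifit1 had separate pools. Markers of Kupffer cells, the liver macrophages, had a median of 0.14 and were highest in pool 11, the IUGR F2 pool with the lowest interferon list median.

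The interferon element as spelled above was found in 15 of the 22 interferon genes with a promoter window (68.2%), against 3.02% of all array genes. Windows of Mndal (chr1:173880138-173880437, minus strand), Ifit1 (chr19:34640639-34640938, plus strand) and Oas1a (chr5:120907476-120907775, minus strand) are shown with the matches in capitals, beside that of the called gene Sppl2a above. In Mndal the match begins 36 bases before the start. Ifit1 holds 2 matches, 104 and 85 bases before the start, read as the reverse complement. Oas1a holds 2 overlapping matches, 20 and 14 bases before the start. Sppl2a and Oas1a share the same 10 letters GAAACTGAAA. A match is a description of letters, and a link of Sppl2a to interferon was not tested. In the ON lineage Sppl2a differed by 0.34 and the interferon list had a median of -0.36. There, ON F1 pool 8 had a list deviation of 1.09, against -0.09 to 0.13 in the other ON pools.
Mndal: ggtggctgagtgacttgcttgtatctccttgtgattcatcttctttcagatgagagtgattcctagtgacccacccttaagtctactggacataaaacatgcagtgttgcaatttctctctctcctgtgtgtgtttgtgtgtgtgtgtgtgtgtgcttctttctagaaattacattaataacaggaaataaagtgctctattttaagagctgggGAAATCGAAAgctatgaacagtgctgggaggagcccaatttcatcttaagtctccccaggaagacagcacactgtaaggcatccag
Ifit1: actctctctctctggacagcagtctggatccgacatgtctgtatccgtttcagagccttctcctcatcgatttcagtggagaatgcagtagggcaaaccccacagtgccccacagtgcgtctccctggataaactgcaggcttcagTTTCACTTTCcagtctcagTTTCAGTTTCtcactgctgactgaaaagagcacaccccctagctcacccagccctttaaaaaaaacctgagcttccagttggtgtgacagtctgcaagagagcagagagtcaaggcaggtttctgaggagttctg
Oas1a: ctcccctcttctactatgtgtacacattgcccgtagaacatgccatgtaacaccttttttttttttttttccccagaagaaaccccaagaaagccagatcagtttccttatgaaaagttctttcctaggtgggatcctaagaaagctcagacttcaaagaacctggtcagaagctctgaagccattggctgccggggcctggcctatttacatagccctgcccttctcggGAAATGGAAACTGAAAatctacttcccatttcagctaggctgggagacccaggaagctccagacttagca

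Secretory and inflammatory liver genes gave small positive differences. Acute phase plasma proteins had 24 of 25 positive (96%, against 41.9% of all genes) at a median of 0.11, and 2 with separate pools (8%, near the 7.25% of all genes). Lbp, which binds bacterial lipopolysaccharide, stood at 9.96, 10.78 and 11.37 in IUGR F2 pools, against 9.93, 10.30 and 9.39 in IUGR F1 pools (0.83 ± 0.50, adjusted p = 0.557), and Apcs, serum amyloid P, at 12.85, 13.48 and 13.35 in IUGR F2 pools, against 12.71, 13.02 and 12.47 in IUGR F1 pools (0.49 ± 0.24, adjusted p = 0.467). IUGR F1 pool 6 was lowest in both genes. Without pool 6 the list median was 0.03. Complement genes of the liver had 16 of 18 positive (median 0.09), and chaperones and regulators of the endoplasmic reticulum 21 of 26 (median 0.08). Hsp90b1, a chaperone of secreted proteins, stood at 12.01, 12.07 and 11.98 in IUGR F2 pools, against 11.63, 11.84 and 11.33 in IUGR F1 pools (0.42 ± 0.11, adjusted p = 0.236), and Xbp1, a factor that expands the secretory machinery, at 12.08, 12.16 and 12.26 in IUGR F2 pools, against 11.76, 11.99 and 11.75 in IUGR F1 pools (0.34 ± 0.11, adjusted p = 0.319). Both were higher in every IUGR F2 pool. The chaperone list median was -0.04 without pool 6, so its sign turned on that pool. Mt1 and Mt2, the metal-binding metallothioneins, had the widest spread, Mt1 at 11.63, 9.41 and 12.96 in IUGR F2 pools, against 7.29, 12.37 and 6.90 in IUGR F1 pools, and their differences of 2.48 ± 1.59 and 2.15 ± 1.52 lay within it. Slc7a5, a carrier of large amino acids, stood at 5.92, 5.86 and 5.96 in IUGR F2 pools, against 5.45, 5.55 and 5.47 in IUGR F1 pools (0.42 ± 0.10, adjusted p = 0.201), while the amino acid response list as a whole was balanced (12 of 20 positive).

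**Figure D3:**
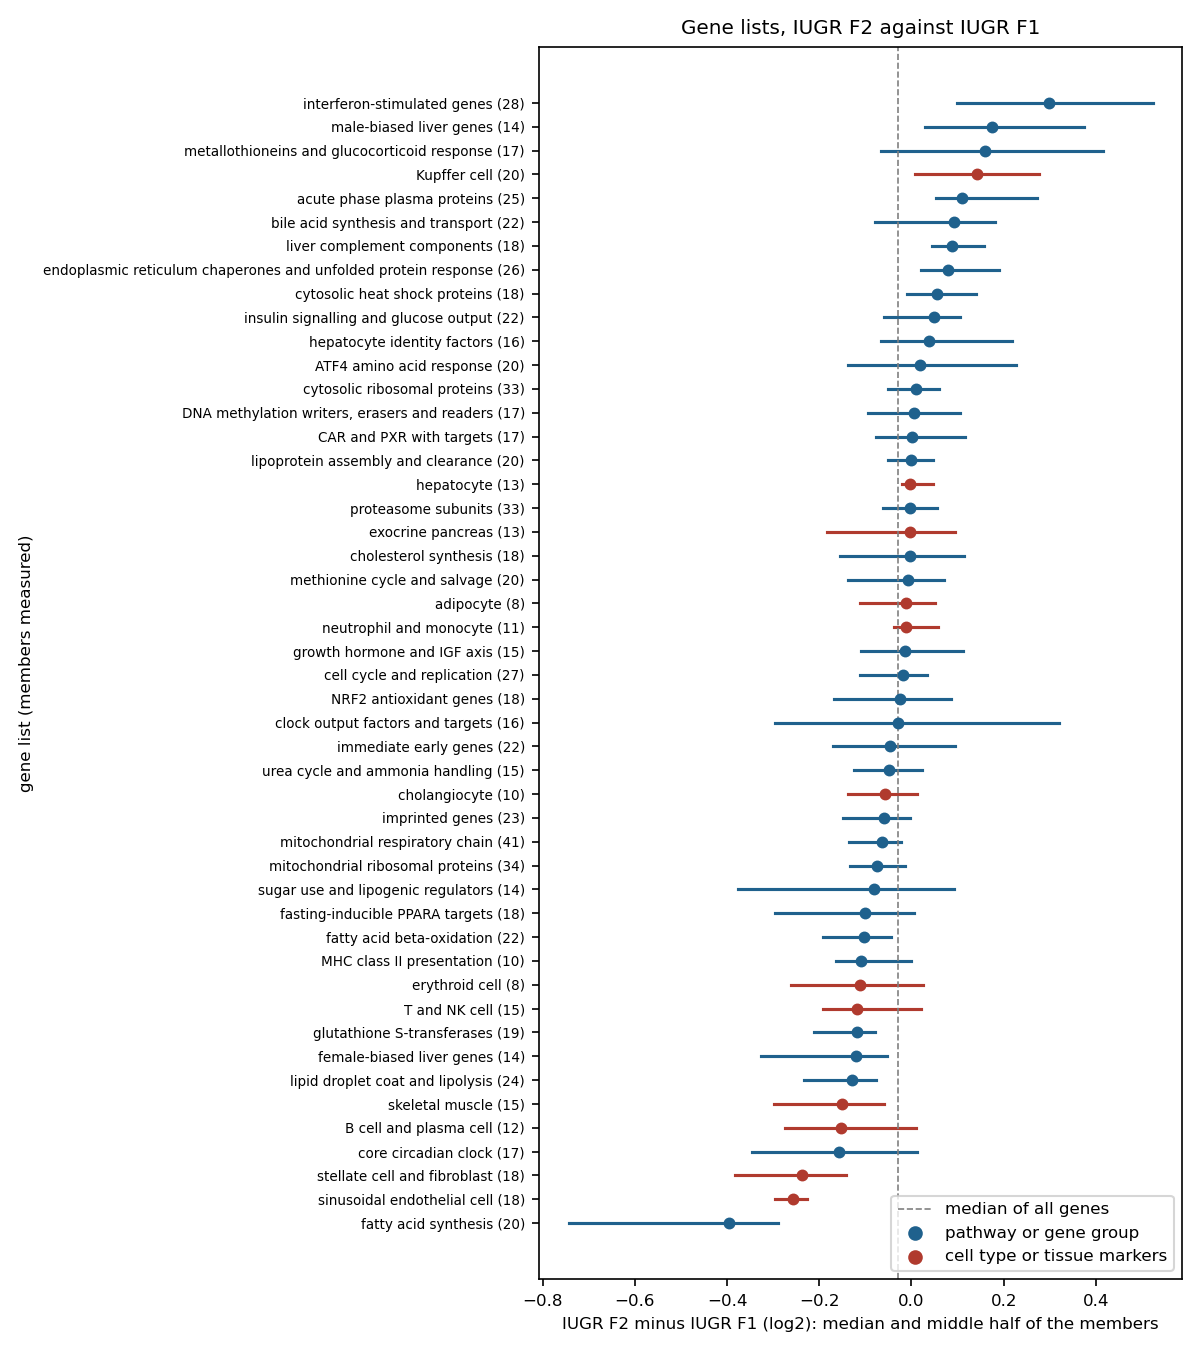
Median (point) and interquartile range (line) of the IUGR F2 minus IUGR F1 difference on the log2 scale (x axis) for the members of each of 48 gene lists (y axis, measured members in parentheses), with pathway lists in blue and cell type or tissue markers in red. The dashed line is the median of all genes at -0.03. Interferon-stimulated genes lie farthest right at 0.30 and fatty acid synthesis genes farthest left at -0.40.

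Markers of the cells other than hepatocytes gave no common sign. Hepatocyte markers had a median of 0.00. Sinusoidal endothelial markers were negative in 18 of 18 members (against 58.1% of all genes) with a median of -0.26. Of these, 4 had separate pools (22.2%, against 12% of all genes), and the list stood at -0.29, 0.12 and -0.22 in IUGR F2 pools 10, 11 and 12, against 0.04, 0.07 and 0.26 in IUGR F1 pools 4, 5 and 6. Pool 11 was thus within the IUGR F1 range and pools 10 and 12 below it. Cdh5, the cadherin of endothelial junctions, stood at 5.94, 6.11 and 5.90 in IUGR F2 pools, against 6.42, 6.23 and 6.44 in IUGR F1 pools (-0.38 ± 0.09, adjusted p = 0.196), and Lyve1, a hyaluronan receptor of sinusoids, at 4.49, 4.61 and 4.59 in IUGR F2 pools, against 4.90, 4.80 and 4.91 in IUGR F1 pools (-0.30 ± 0.11, adjusted p = 0.345). Stellate cell and fibroblast markers were negative in 16 of 18 (88.9%, median -0.24), and 5 had separate pools (27.8%, against 12% of all genes), the list standing at -0.20, -0.04 and -0.15 in IUGR F2 pools 10, 11 and 12, against 0.09, 0.20 and 0.13 in IUGR F1 pools 4, 5 and 6. Des, the desmin of stellate cells, stood at 5.38, 5.35 and 5.40 in IUGR F2 pools, against 5.52, 5.81 and 5.75 in IUGR F1 pools (-0.32 ± 0.09, adjusted p = 0.255), Reln at 9.23, 9.26 and 8.85 in IUGR F2 pools, against 9.46, 9.51 and 9.49 in IUGR F1 pools (-0.37 ± 0.13, adjusted p = 0.323), and Col3a1, a fibrillar collagen, at 7.05, 7.56 and 7.34 in IUGR F2 pools, against 7.90, 7.79 and 7.65 in IUGR F1 pools (-0.47 ± 0.21, adjusted p = 0.431). The 2 probe sets of Des differed by -0.32 and 0.05, and the 2 of Reln by -0.37 and -0.0002. The list medians of the generations did not overlap. In whole liver, fewer cells of a type and less RNA per cell cannot be told apart.

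Kupffer cell markers were positive in 18 of 20 (90%, against 41.9% of all genes, median 0.14), and 2 had separate pools (10%, against 7.25% of all genes). Pool 11 stood at 0.30 against -0.11 and 0.01 in pools 10 and 12. Without pool 11 the median was 0.01. C1qa, a complement subunit these macrophages make, stood at 7.58, 8.17 and 7.76 in IUGR F2 pools, against 7.55, 7.40 and 7.36 in IUGR F1 pools (0.40 ± 0.15, adjusted p = 0.359), and Clec4f, a lectin of Kupffer cells, at 7.39, 7.94 and 7.45 in IUGR F2 pools, against 7.50, 7.15 and 7.30 in IUGR F1 pools (0.27 ± 0.15, adjusted p = 0.53). B cell markers were negative in 9 of 12 and T and NK cell markers in 10 of 15, with medians of -0.15 and -0.12, and 7 and 12 of these genes had a mean below 5. Without such dim genes the B cell median turned to 0.09, and it was -0.09 without IUGR F2 pool 10. The T and NK cell median was -0.07 without IUGR F1 pool 6 and -0.08 without IUGR F2 pool 10. Ighm, the heavy chain of IgM, was brighter, at 8.43, 8.59 and 7.89 in IUGR F2 pools, against 9.80, 10.17 and 9.51 in IUGR F1 pools, a ratio of 0.347 (-1.52 ± 0.52, adjusted p = 0.323). Its 11 probe sets differed by -1.52 to 0.10, and Pax5, a B cell factor, differed by -0.29 ± 0.10 near the floor of the array. Skeletal muscle markers had a median of -0.15, which was -0.03 without the muscle-rich pool 5. Exocrine pancreas markers had a median of 0.00.

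**Figure D4:**
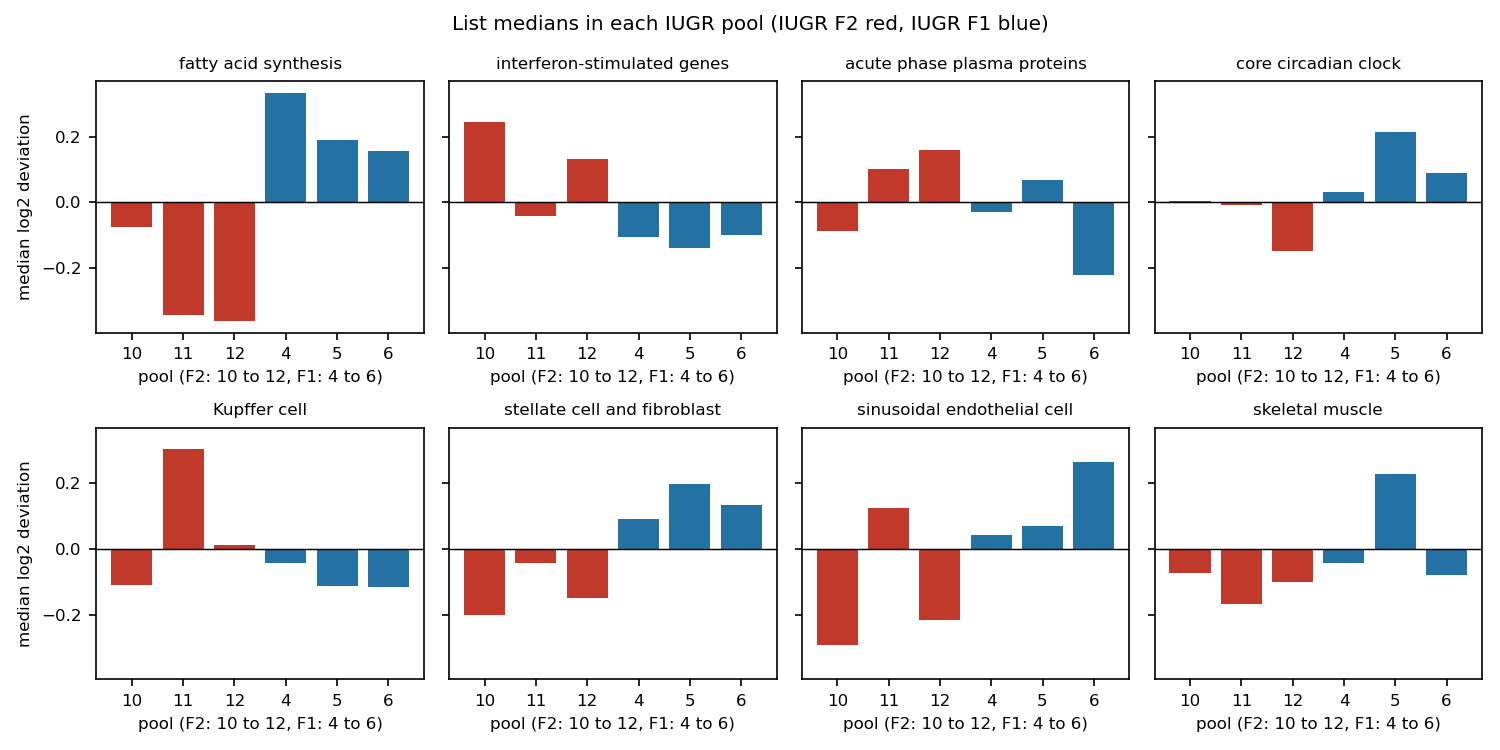
Median log2 deviation of 8 gene lists from the mean of the 6 IUGR pools (y axis) in each pool (x axis), IUGR F2 pools 10 to 12 in red and IUGR F1 pools 4 to 6 in blue. Fatty acid synthesis and stellate cell genes keep the generations apart, whereas the Kupffer cell bar is high in pool 11 and the muscle bar in pool 5.

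Core clock genes did not share 1 sign, although the list median lay lower in IUGR F2. The list had 12 of 17 negative (70.6%, against 58.1% of all genes) and a median of -0.16, which was -0.10 without IUGR F2 pool 12. It stood at 0.01, -0.01 and -0.15 in IUGR F2 pools 10, 11 and 12, against 0.03, 0.21 and 0.09 in IUGR F1 pools 4, 5 and 6, so that the list medians did not overlap, although pools 10 and 4 lay close to each other. Pools were separate in 1 member on the lower and 1 on the higher side (5.88% each). Both shares were below those of all genes, 12% lower and 7.25% higher. A score of clock phase, the mean of Dbp, Tef, Hlf, Nr1d1, Nr1d2, Per2, Per3 and Ciart minus that of Arntl, Npas2, Clock and Nfil3, stood at -0.87, -0.78 and -0.66 in IUGR F2, within the range of IUGR F1 pools at -1.21, 1.16 and -0.02. Cry2, a repressor of the clock, stood at 6.39, 6.58 and 6.39 in IUGR F2 pools, against 6.71, 6.90 and 7.12 in IUGR F1 pools (-0.45 ± 0.14, adjusted p = 0.307), and Clock, its activator, at 7.62, 7.63 and 7.46 in IUGR F2 pools, against 7.31, 7.19 and 7.30 in IUGR F1 pools (0.30 ± 0.14, adjusted p = 0.429), each without overlap. Nr1d1, the REV-ERBα repressor, stood at 5.40, 6.12 and 5.70 in IUGR F2 pools, against 5.57, 6.66 and 6.66 in IUGR F1 pools with overlap. Avpr1a, a vasopressin receptor listed among clock outputs, stood at 8.17, 8.32 and 8.26 in IUGR F2 pools, against 7.77, 7.51 and 7.66 in IUGR F1 pools (0.60 ± 0.12, adjusted p = 0.17), and Cyp7a1, the rate-limiting enzyme of bile acid synthesis, at 9.37, 8.99 and 10.06 in IUGR F2 pools, against 8.86, 8.88 and 9.02 in IUGR F1 pools (0.55 ± 0.23, adjusted p = 0.398). Nr0b2, the bile acid-induced repressor of Cyp7a1, stood at 9.02, 9.60 and 8.40 in IUGR F2 pools, against 9.78, 9.41 and 9.77 in IUGR F1 pools (-0.65 ± 0.28, adjusted p = 0.416). With the clock score as a covariate the median of the fatty acid synthesis genes was -0.50 and that of the interferon genes 0.27.

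Genes tied to epigenetic marks showed small differences. Genes that write, erase or read DNA methylation had a median of 0.01, with 9 positive and 8 negative. Pools were wholly below in 1 of 17 (5.88%, against 12% of all genes), Mbd3 (-0.21 ± 0.10, adjusted p = 0.438). The maintenance methyltransferase Dnmt1 differed by 0.06 ± 0.09, and the de novo enzymes Dnmt3a and Dnmt3b by 0.22 ± 0.21 and 0.21 ± 0.21. Imprinted genes, expressed from one parental allele, had 17 of 23 negative (73.9%, against 58.1% of all genes, median -0.06). Of them 3 had pools wholly above (13%, against 7.25% of all genes) and 5 wholly below (21.7%, against 12%). Phlda2, a maternally expressed restrainer of placental growth, stood at 5.26, 5.45 and 5.39 in IUGR F2 pools, against 4.70, 4.97 and 4.86 in IUGR F1 pools (0.52 ± 0.18, adjusted p = 0.323). Impact, a paternally expressed regulator of translation, stood at 7.25, 7.12 and 7.23 in IUGR F2 pools, against 6.96, 6.90 and 6.99 in IUGR F1 pools (0.25 ± 0.08, adjusted p = 0.319), and Ndn, paternally expressed, at 4.97, 4.91 and 4.94 in IUGR F2 pools, against 5.15, 5.23 and 5.44 in IUGR F1 pools (-0.33 ± 0.10, adjusted p = 0.295). On the probe sets tested, these 3 genes had separate pools and did not share 1 sign. The 3 probe sets of Impact differed by -0.13 to 0.25, with 1 positive. The 8 probe sets of Ndn differed by -0.33 to 0.06, with 3 positive. Adi1, in the methionine list, was the 1 called member of any list. Of the other genes in that list, 9 were positive and 10 negative. Mri1 and Enoph1, which act before Adi1 in the salvage pathway, differed by -0.16 ± 0.07 and 0.25 ± 0.14.

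Nuclear genes of mitochondria lay slightly lower. Respiratory chain subunits were negative in 34 of 41 (82.9%, median -0.06), and 15 had pools wholly below (36.6%). Mitochondrial ribosomal proteins were negative in 28 of 34 (82.4%, median -0.07), and 8 had pools wholly below (23.5%). Over all genes 58.1% were negative, 12% had pools wholly below and the median was -0.03. The median of the mitochondrial ribosomal proteins was -0.03 without IUGR F1 pool 4 and -0.11 without IUGR F2 pool 11. Uqcrc1, a core subunit of complex III, stood at 10.79, 10.79 and 10.77 in IUGR F2 pools, against 11.04, 10.96 and 11.01 in IUGR F1 pools (-0.22 ± 0.07, adjusted p = 0.317), and Mrpl27, of the large mitochondrial subunit, at 10.05, 10.17 and 10.03 in IUGR F2 pools, against 10.36, 10.34 and 10.35 in IUGR F1 pools (-0.27 ± 0.07, adjusted p = 0.236). Mtif2, which serves these ribosomes, rose while the list lay below 0. The 2 probe sets of Mrpl27 differed by -0.27 and -0.008. Glutathione S-transferases were negative in 16 of 19 (median -0.12). Cytosolic ribosomal proteins and proteasome subunits had medians of 0.01 and 0.00, and cell cycle genes of -0.02.

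Against the ON lineage, 3 genes (0.0165%) differed in their change between generations, tested as the IUGR change minus the ON change. For Adi1 the levels were 8.31, 8.34 and 8.38 in ON F2 pools and 9.17, 9.10 and 9.16 in ON F1 pools, so that the ON change was -0.80 ± 0.09 (adjusted p = 0.00405), opposite to that of the IUGR lineage, and the changes differed by 1.61 ± 0.13 (adjusted p = 0.000338). Aqp4, a water channel, stood at 5.45, 5.35 and 5.13 in IUGR F2 pools, against 5.10, 4.69 and 4.60 in IUGR F1 pools, with 3.69, 3.72 and 4.69 in ON F2 pools and 6.95, 5.89 and 6.62 in ON F1 pools. Its changes differed by 2.97 ± 0.40 (adjusted p = 0.0358). Mmd2, a membrane protein of the progestin and adipoQ receptor family, stood at 5.29, 5.38 and 5.62 in IUGR F2 pools, against 5.97, 6.06 and 5.72 in IUGR F1 pools, with 6.79, 6.35 and 6.71 in ON F2 pools and 5.40, 5.11 and 5.46 in ON F1 pools, and its changes differed by -1.78 ± 0.20 (adjusted p = 0.00688). For Aqp4 and Mmd2 the larger change was that of the ON lineage. The Aqp4 call was lost in 14 of 19 alternatives. These were 10 of the 12 that leave out 1 pool (all but ON F1 pool 8 and ON F2 pool 15), and the fits with all 15 arrays, without dim genes, with the clock score (2.11) and with the mean of its probe sets (1.06). Over the 12 fits without 1 pool the difference was 2.74 to 3.30. Mtif2, Sppl2a and Dctn6 differed by -0.07, 0.34 and 0.47 in the ON lineage, and their difference of changes did not pass (adjusted p = 0.0844, 0.707 and 0.859).

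Fatty acid synthesis genes had a median of -0.40 in the IUGR and -0.37 in the ON lineage, with 20 and 18 of 20 negative. Of these genes, 0 differed between lineages by the limma adjusted test (2 at an unadjusted p under 0.05). The list deviation was -0.24, -0.06 and 0.27 in ON F2 pools 13, 14 and 15. It was 1.05, 0.04 and 0.02 in ON F1 pools 7, 8 and 9. ON F1 pool 7 thus stood far above the other ON pools, and the ON generations overlapped. Interferon genes had medians of 0.30 and -0.36, beside which ON F1 pool 8 had a list deviation of 1.09 against -0.09 to 0.13 in the other ON pools. Stellate cell markers had medians of -0.24 and 0.05, and PPARα targets of -0.10 and -0.58. Across 18193 genes the changes of both lineages correlated at r = 0.324 (rho = 0.325) and 62.4% shared their sign. Genes are not independent replicates, the arrays were normalised together, and F2 livers stand against F1 livers in both. The ON lineage had 188 called genes (1.03%), of which 151 (80.3%) had the same sign in the IUGR lineage.

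**Figure D5:**
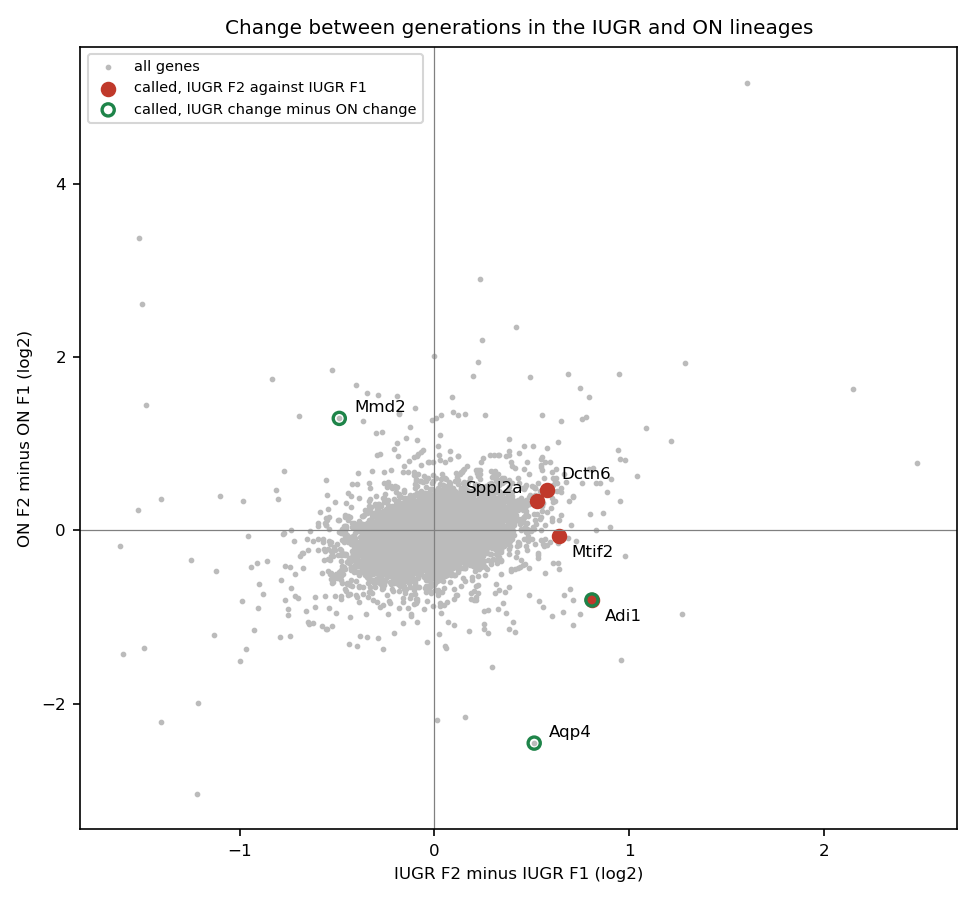
Change between generations in the IUGR lineage (x axis, IUGR F2 minus IUGR F1) and in the ON lineage (y axis, ON F2 minus ON F1), both log2, for 18193 genes in grey. Red points are the 4 genes called in the IUGR lineage, green rings the 3 genes whose changes differed between lineages. Adi1 lies at 0.81 and -0.80, in the quadrant of opposite signs.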

How the data were processed

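Liver RNA from 15 pools was hybridised to 1-colour Affymetrix arrays. Levels are log2 values that the authors deposited after RMA (background correction, quantile normalisation and probe set summary), per the submitters' processing notes, with the RMA version not given in the sources used here. Arrays have no read depth, and the number of pools limits the precision.

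From these values, 45101 probe sets were read. Of these, 64 were controls, 34945 carried 1 gene symbol, 932 several and 9160 none in GEO's platform annotation. By Entrez ID 34741 matched RefSeq, and 0 symbols changed. For each of 18193 genes the brightest probe set by its mean across 12 arrays was used, with no filter on dim genes. Other probe sets of a gene can differ less or by the opposite sign. One model with 4 group means (IUGR F2, IUGR F1, ON F2, ON F1; 12 arrays, no control) was fitted with limma 3.58.1 in R 4.3.3 (lmFit, eBayes without trend), and tests were two-sided with Benjamini-Hochberg adjustment over all genes at a threshold of 0.05. The fit was tested on simulated data. Scan dates or other batches were not used here.

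Genes were named by a rule: in each direction 10 genes by p with separate pools and 5 by size with an unadjusted p under 0.05; 2 to 4 of each of 48 gene lists; a metabolic and clock panel; and 5 in each direction by the p of the difference between lineages. Me1, Elovl6, Acly, Aacs, Acacb, Slc2a2, Mx2, Xaf1, Oas1a, Ifit1, Col3a1, Phlda2, Mri1, Enoph1, Mt1, Mt2 and Acta1 were chosen after their values were seen. The comparison, lists and promoters were chosen with earlier results of these data known. Lists are described by counts and medians, with no test. Promoter sequences are from the RefSeq table (GRCm38.p6), with RefSeq gene order used for neighbours.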

Additional observations from a re-analysis of the deposited data

Results flagged for a closer look

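For 3 genes the change between generations differed between the lineages by limma's test of the difference itself. The IUGR change (IUGR F2 minus IUGR F1) minus the ON change (ON F2 minus ON F1) was 1.61 on the log2 scale for Adi1 (adjusted p = 0.000338), with the 3 IUGR F2 pools above and the 3 ON F2 pools below their first generation. It was -1.78 for Mmd2 (adjusted p = 0.00688) and 2.97 for Aqp4 (adjusted p = 0.0358), with the ON pools farther apart between generations than the IUGR pools for both genes.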

How the results depend on the processing

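The 4 calls between IUGR F2 and IUGR F1 were 1 with the 6 IUGR arrays alone, 2 with all 15 arrays, 2 with the mean of probe sets, 20 with array weights (11 higher, 9 lower) and 0 to 2 without 1 IUGR pool. It was 2 without ON F2 pool 13, 14 or 15, 5 to 6 without 1 ON F1 pool (both chosen after seeing the data), and 4 to 6 with dim genes left out (mean under 5), an intensity trend, median centring or the clock score as covariate. Adi1 was called in 15 of 20 alternatives, Mtif2 in 13, and Sppl2a and Dctn6 in 7 each, all higher in IUGR F2. The 1 called list member was 0 with the 6 arrays, 2 with array weights and 0 to 1 without 1 IUGR or ON pool. The 3 differences between lineages were 1 with the mean of probe sets, where Mmd2 was -1.20 and not called. Aqp4 was 1.06 and not called there, and not called in 14 of 19 alternatives in all, and Mmd2 was -1.93 and not called with the clock score. Medians shifted for stellate markers to -0.34 without dim genes, for B cell markers to -0.09 without pool 10 and, with the sign turned, 0.09 without dim genes, for mitochondrial ribosomal proteins to -0.03 without pool 4 and -0.11 without pool 11, and for droplet genes to -0.21 and muscle to -0.03 without pool 5. Signs turned for Ppara (-0.038 with the mean of probe sets, -0.0047 with array weights, -0.089 to 0.126 without 1 IUGR pool), Dnmt1 (-0.010 to 0.10), Dnmt3b (-0.0169 to 0.392) and G6pc (-0.193 to 0.0448). The cause was not tested. Reading every probe set singly, an alternative chosen after seeing the data, gave 3 calls, and 4 between lineages. No paired analysis was possible because the pools are numbered 1 to 15 and share no number.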

Other observations

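Of 10092 probe sets with no gene symbol or several, 0 were called by limma between IUGR F2 and IUGR F1 when every probe set was tested singly, and 1035 had an unadjusted p under 0.05.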
